A study of Neogale vison with 6 samples.

Results

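The Hedgehog pathway was followed here through 9 genes, picked by a list of symbols, without a threshold on any measured value but with earlier results of these data known: HHAT and DISP1, PTCH1, SMO and HHIP, SUFU, and the transcription factors GLI1, GLI2 and GLI3. All 9 were found among the 24526 genes of the count table. Reads were counted on 8 of them, and these 8 were among the 12148 genes with enough reads to be tested.

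The cells were Mv1Lu, a permanent epithelial line from mink lung. RNA-seq was done on 3 libraries of untreated cells kept in growth medium (control) and on 3 libraries of cells subjected to cholesterol depletion (CD). CD lasted 16 h and consisted of 50 μM lovastatin, a statin, together with 50 μM mevalonate, a precursor of sterols and isoprenoids, in medium with 10% lipoprotein-deficient serum (LPDS). No library had only some of these components, so that the groups differ by the statin, the added mevalonate and the serum together, and their effects cannot be told apart. The labels do not say whether replicates were separate cultures, and p-values then measure only the spread between these libraries.

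Hedgehog ligands are the best known proteins that carry cholesterol covalently. HHAT attaches a palmitate to the ligand and DISP1, a membrane protein with a sterol-sensing domain, releases the doubly lipidated ligand from the producing cell. On the receiving cell the ligand binds PTCH1, another sterol-sensing domain protein, which otherwise keeps sterols away from Smoothened (SMO). SMO is a G protein-coupled receptor that is activated by cholesterol and oxysterols at the primary cilium. Active SMO frees the GLI factors from SUFU, and the GLI factors then switch on target genes, which include PTCH1, HHIP and GLI1 themselves. In the lung, ligands made by the epithelium act mainly on the neighbouring mesenchyme.

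The libraries held between 13473820 and 18633764 reads on genes, and 29.3–47.2% of all reads of a library fell on no single gene, were ambiguous or were unmapped. Levels are given as CPM (reads per 1000000 reads on tested genes after TMM scaling), as the mean ± SD of 3 libraries. CPM is not corrected for gene length and is compared only for the same gene between libraries. Differences were tested with the quasi-likelihood test of edgeR over all tested genes and called at a Benjamini-Hochberg FDR under 0.05, and changes are log2 fold changes of CD against control with their SE or 95% confidence interval (CI). CD changed a large share of the transcriptome: 47.7% of tested genes were called, 24.8% higher and 22.9% lower, and the median log2 change of all tested genes was 0.057. For 58.0% of the tested genes the CD and control libraries did not overlap, with all CD libraries higher for 29.5% and lower for 28.6%.

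The line was checked against cell type markers. The summed CPM of the epithelial markers, of which 5 of 7 were found, ranged over 7726–8377 in control libraries but 1484–1952 in those of CD. Nearly all of it came from the keratin genes KRT7 (7126 ± 265 in control, 1256 ± 156 in CD) and KRT19 (936 ± 66.9 and 458 ± 77.1). The adhesion genes that define most epithelia were close to absent, with a total over 3 libraries of 7 control and 2 CD reads on EPCAM and 8 and 18 reads on CDH1. CLDN4, a tight junction claudin, had 27 reads over all control libraries and 326 over all CD libraries. Of the markers of differentiated lung epithelium, SFTPC and SFTPB had no reads, and the sum of the 5 markers was 1.71–2.65 CPM in control and 0.864–1.35 CPM in CD. Fibroblast markers (8 of 8 found) summed to 309.9–387.4 CPM in control and 182.8–232.5 CPM in CD, mostly from the collagen genes COL1A2 and COL3A1, with THY1 at 0. Within this list LUM went the other way, with 7 reads over all control libraries and 35 over all CD libraries, as did DCN with 3 and 15 reads, and PDGFRA was not called (log2 change -0.043). Endothelial markers (3 of 3 found) summed to 0.0551–0.0723 CPM in control libraries but 0.246–0.307 CPM in those of CD, a few reads per library, and the sum of the immune markers (3 of 3) was 5.204–5.84 CPM in control libraries but 17.6–23.3 CPM in those of CD, nearly all from CD68, with PTPRC close to 0. The markers thus moved with the treatment, and their part in the results on the Hedgehog genes was not tested. In bulk RNA a lower level can come from fewer cells that express a gene or from less RNA per cell, which cannot be told apart.

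Of the 8 Hedgehog genes tested, CD lowered 4 (PTCH1, SMO, SUFU and GLI2), raised 1 (DISP1) and left 3 without a call (HHAT, GLI1 and GLI3). HHIP had no reads. The share called, 62.5%, stood beside 47.7% of all genes, and the 50% called lower beside 22.9%. The median log2 change of the 8 genes was -0.51, against 0.057 over all tested genes. For 6 of the 8 the CD and control libraries did not overlap, against 58.0% of all genes.

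**Figure D1:**
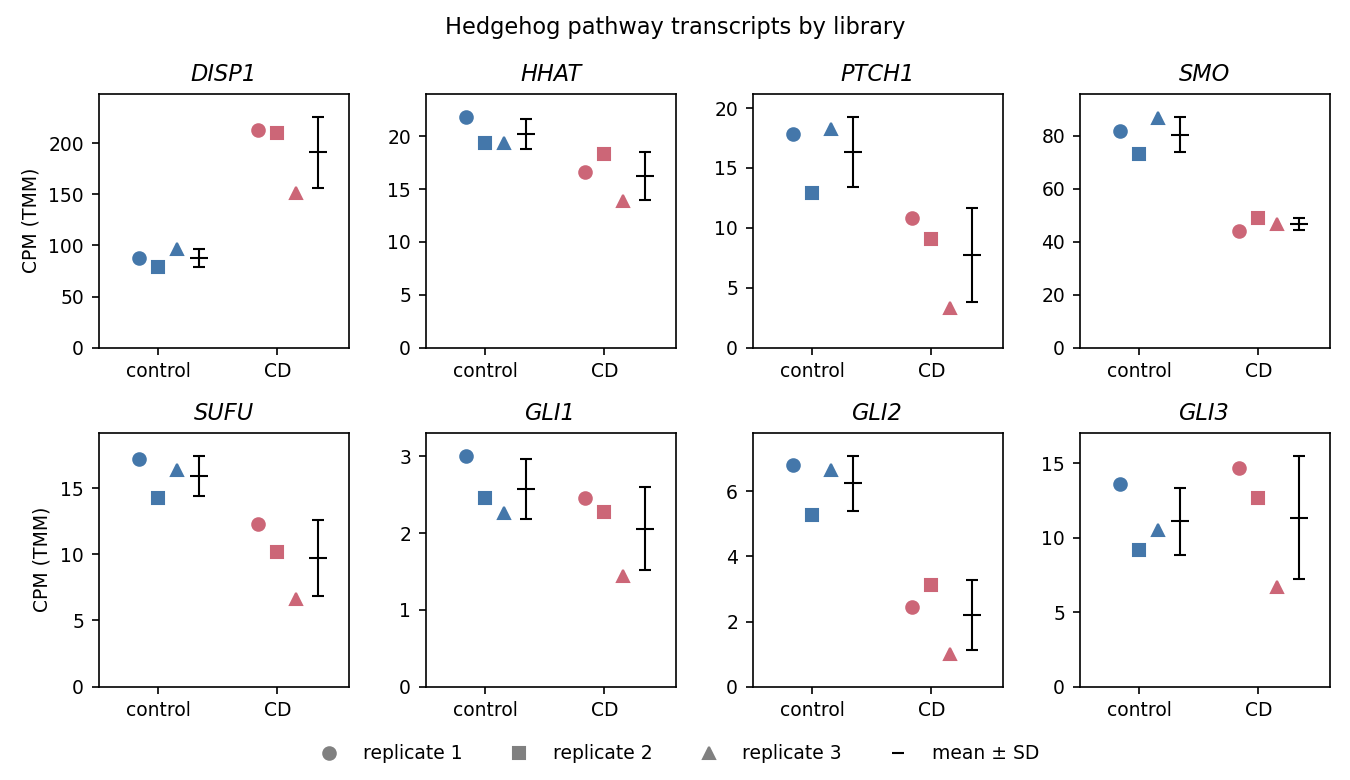
Expression of the 8 Hedgehog genes with reads, in CPM, in the 3 control and the 3 CD libraries, with points for the libraries and black bars for the mean ± SD of each group. DISP1 lies higher in every CD library than in any control library, PTCH1, SMO, SUFU, GLI2 and HHAT lie lower in every CD library, and the groups overlap for GLI1 and GLI3. CD replicate 3 is the lowest CD library for 7 of the 8 genes.

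The libraries of CD were less alike than those of control. CD replicate 3 had the lowest CD value for 7 of the 8 Hedgehog genes, the exception being SMO, whereas it was the lowest for 41% of all tested genes. In this library 41.4% of the reads did not fall on a gene, which was the highest share among the CD libraries but under that of control replicate 1. The median SD of log2 CPM over the Hedgehog genes was 0.171 in control and 0.419 in CD, against 0.126 and 0.244 over all tested genes. Values without CD replicate 3 are given for the calls of named genes that it changed and for the Hedgehog genes whose size of change depended on it most. Its part in the results was not tested further.

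On the side of the ligand, DISP1 was the one Hedgehog gene that CD raised. DISP1 (ENSNVIG00000016087) was at 87.4, 79.0 and 96.2 CPM in control replicates 1, 2 and 3 and at 212.5, 209.7 and 150.8 CPM in CD replicates 1, 2 and 3. The lowest CD library was thus well above the highest control library. The mean rose from 87.5 ± 8.60 to 191 ± 34.9 CPM, a 2.18-fold increase (log2 change 1.13, CI 0.79 to 1.47, edgeR FDR 0.000223). It was called in all 14 alternative settings, with log2 changes from 1.02 to 1.23.

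HHAT, the acyltransferase that palmitoylates the ligand, was not called. HHAT (ENSNVIG00000016344) had 21.9, 19.4 and 19.4 CPM in the control libraries and 16.6, 18.3 and 13.8 CPM in the CD libraries, in order of the replicates. Each CD library was below each control library, but CD replicate 2 lay only slightly under control replicates 2 and 3. The log2 change was -0.31, with a CI from -0.67 to 0.043 (edgeR FDR 0.132), and no alternative setting called it. The CI therefore leaves room for a decrease of HHAT as well as for no change. An exact permutation test of log2 CPM gave p = 0.1 for DISP1 and for HHAT, which is the smallest two-sided p that 3 against 3 libraries allow.

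The number of DISP1 reads per HHAT read, which does not depend on the scaling between libraries, was 4, 4.08 and 4.96 in control and 12.8, 11.5 and 10.9 in CD. The log2 of this ratio was higher in CD by 1.44, and by 1.49 without CD replicate 3 (exact permutation p = 0.1, p = 0.15 after Benjamini-Hochberg adjustment over the 3 ratios compared here). These 3 ratios were chosen after the values of the genes had been seen. DISP1 and HHAT lie on the same chromosome of the mink assembly ASM_NN_V1 with 3 protein-coding genes between them.

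Among the ligand genes themselves, IHH carried the largest decrease of the pathway genes listed. IHH (Indian hedgehog) had 214, 185 and 294 reads in the control libraries and 14, 19 and 20 reads in the CD libraries. In CPM this was a fall from 14.97 ± 1.45 to 1.16 ± 0.290, or 13.0-fold (log2 change -3.70, SE 0.23, edgeR FDR 1.71e-06), and every one of the 14 alternative settings called it, with log2 changes from -3.91 to -3.51. IHH thus lay far outside the range that held the middle 90% of all tested genes, -1.47 to 1.505. DHH (desert hedgehog) had 3 reads in the 3 control and 2 reads in the 3 CD libraries and was not tested. SHH was not found by its symbol and was not analysed here.

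SCUBE proteins take over the ligand from DISP1 outside the cell. SCUBE2 had 0, 2 and 2 reads in the control libraries and 17, 15 and 16 reads in the CD libraries, with no overlap. It passed the filter on low counts only through the CD libraries, so that its test was conditioned on that direction and its values are given as a description. SCUBE1, which was well covered, had 38.0 ± 4.07 CPM without and 32.4 ± 8.87 CPM with CD, and was not called (edgeR FDR 0.380). SCUBE3 had too few reads to be tested.

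On the receiving side CD lowered both PTCH1 and SMO. PTCH1 (ENSNVIG00000012267), the ligand receptor and itself a target of the GLI factors, was at 17.8, 12.9 and 18.2 CPM in the control libraries and at 10.8, 9.08 and 3.31 CPM in the CD libraries. The groups did not overlap, but CD replicate 3 lay far below the other CD libraries, with 46 reads against 176 and 148. The mean fell from 16.3 ± 2.95 to 7.74 ± 3.93 CPM, 2.10-fold (log2 change -1.07, CI -1.85 to -0.29, edgeR FDR 0.0289). PTCH1 was called in 10 of 14 alternative settings. The call was lost without control replicate 1 (log2 change -1.01, edgeR FDR 0.0801), without control replicate 3 (-0.99, FDR 0.104), with scaling by total counts only (FDR 0.0561) and with no filter on low counts (FDR 0.0708). Without CD replicate 3 the decrease was smaller, 1.69-fold (log2 change -0.75), and had a lower FDR, 0.000305. The direction of the PTCH1 change was the same in all of these settings, while its size rested in part on 1 library.

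SMO, the transducer that binds sterol, had the smallest SE among the Hedgehog genes, 0.12 on the log2 scale. SMO (ENSNVIG00000023033) had 1141, 1013 and 1572 reads in control and 720, 797 and 650 reads in CD. In CPM these were 81.8, 73.2 and 86.6 in control and 44.3, 48.9 and 46.8 in CD, so that the highest CD library stayed well under the lowest control library. The mean fell from 80.5 ± 6.78 to 46.7 ± 2.33 CPM, 1.73-fold (log2 change -0.79, CI -1.05 to -0.52, edgeR FDR 0.000438). All 14 alternative settings called it, with log2 changes from -0.86 to -0.73. SMO was also the one Hedgehog gene for which CD replicate 3 was not the lowest CD library.

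The number of SMO reads per PTCH1 read was 4.58, 5.66 and 4.75 in control and 4.09, 5.39 and 14.1 in CD. CD replicates 1 and 2 lay near the control libraries, and CD replicate 3 stood apart from all the others. The log2 difference of the ratio was 0.45 with CD replicate 3 and -0.084 without it (exact permutation p = 0.7, adjusted p = 0.7). The sign of the difference thus rested on CD replicate 3, and with 3 libraries per group no p under 0.1 was possible.

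**Figure D2:**
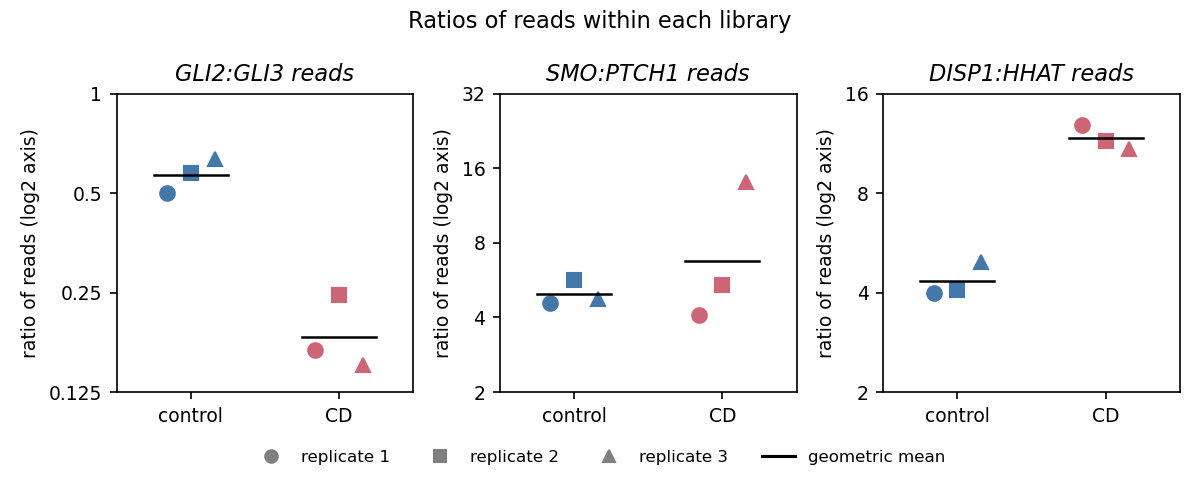
Ratios of reads of GLI2 to GLI3, SMO to PTCH1 and DISP1 to HHAT within each of the 3 control and 3 CD libraries, on a log2 axis, with lines for the geometric mean of each group. The groups are apart for GLI2:GLI3 (0.500–0.634 in control, 0.151–0.246 in CD) and for DISP1:HHAT, while for SMO:PTCH1 CD replicate 3, at 14.1, lies above every other library.

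HHIP, a membrane protein that sequesters the ligand and a classical target of the GLI factors, had 0 reads in all 6 libraries. A count of 0 allows up to 3 reads, or 0.165–0.217 CPM depending on the library (for counting error only), so that a low level in either group was not detectable at this depth.

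Of the coreceptors that present the ligand to PTCH1, GAS1 and CDON were called lower and BOC was not called. GAS1, a membrane-anchored coreceptor, had 304, 159.1 and 145.3 CPM in the control libraries and 68.2, 106.3 and 120.4 CPM in the CD libraries, and its mean fell from 203 ± 87.9 to 98.3 ± 27.05 CPM (log2 change -1.04, SE 0.29, edgeR FDR 0.0135). Control replicate 1 was far above the other control libraries, and without it the log2 change was -0.63, called only just under the threshold (edgeR FDR 0.0497). The GAS1 call was lost without CD replicate 3 (log2 change -1.25, edgeR FDR 0.132), with no filter on low counts (FDR 0.110) and with the replicate number as a block (-0.99, FDR 0.219). CDON fell from 46.2 ± 4.51 to 25.01 ± 12.3 CPM (log2 change -0.88, SE 0.32, edgeR FDR 0.0465), with 154 reads in CD replicate 3 against 563 and 478 in the other CD libraries. CDON was called in 7 of 14 alternative settings. It was lost without control replicate 1, 2 or 3 (edgeR FDR 0.117, 0.0848 and 0.117) and without CD replicate 2 (FDR 0.0550), as well as with upper quartile or total count scaling (FDR 0.0628 and 0.0874) and with no filter (FDR 0.192), while without CD replicate 3 it was called with a log2 change of -0.57 (FDR 0.000151). BOC, a relative of CDON, was at 15.5, 15.8 and 17.5 CPM in control and at 21.9, 20.6 and 12.1 CPM in CD. Its groups overlapped because of CD replicate 3, and it was not called (log2 change 0.17, edgeR FDR 0.560) except without that library (0.35, FDR 0.0484). Over the 6 receptors, coreceptors and decoys listed, 5 were tested, of which 4 fell and none rose (80% lower, beside 22.9% of all genes), with a median log2 change of -0.88. Without CD replicate 3 the coreceptors stood at 1 higher (BOC) and 1 lower (CDON) of 3, beside 29.3% and 29.2% of all genes in that fit.

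Between SMO and the GLI factors stands SUFU, which holds GLI proteins in the cytoplasm and favours their processing to repressors. SUFU (ENSNVIG00000017315) was at 17.2, 14.2 and 16.4 CPM in control and at 12.3, 10.2 and 6.63 CPM in CD. All CD libraries were below all control libraries, with CD replicate 3 again the lowest. The mean fell 1.64-fold, from 15.9 ± 1.52 to 9.70 ± 2.86 CPM (log2 change -0.71, CI -1.21 to -0.21, edgeR FDR 0.0251). It was called in 11 of 14 alternative settings and was lost without control replicate 1 (-0.66, FDR 0.0894), without control replicate 3 (-0.69, FDR 0.0837) and with scaling by total counts only (FDR 0.05003). Without CD replicate 3 the log2 change was -0.54 (FDR 0.00656), which was called. The negative regulators PTCH1 and SUFU and the positive transducer SMO thus all had lower mRNA levels in CD.

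Of the 3 GLI genes, 1 was called. GLI2, the main activator of the family, had 95, 73 and 121 reads in the control libraries and 40, 51 and 14 reads in the CD libraries. Its level of 6.81, 5.28 and 6.67 CPM in control went down to 2.46, 3.13 and 1.01 CPM in CD, with no overlap. The mean of GLI2 (ENSNVIG00000003379) fell from 6.25 ± 0.846 to 2.20 ± 1.08 CPM, 2.81-fold (log2 change -1.49, CI -2.23 to -0.75, edgeR FDR 0.00431). This was the largest decrease among the 9 genes, and it was called in all 14 alternative settings, from -1.86 to -1.196 on the log2 scale. The smallest of these changes, a 2.29-fold decrease, was the one without CD replicate 3.

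GLI3, the main repressor of the family, was not called. GLI3 (ENSNVIG00000024274) had 13.6, 9.18 and 10.5 CPM in control and 14.7, 12.7 and 6.70 CPM in CD. The CD libraries spanned the whole range of the control libraries, with CD replicate 1 the highest and CD replicate 3 the lowest of all. The log2 change was 0.038, with a CI from -0.59 to 0.66 (edgeR FDR 0.921, exact permutation p = 1), and its sign depended on the setting, from -0.18 without CD replicate 1 to 0.27 without CD replicate 3. A change of GLI3 within that interval, in either direction, was not detectable with these libraries.

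GLI1, which amplifies the signal and is the transcript most often read as the output of the pathway, was low throughout. GLI1 (ENSNVIG00000002001) had 42, 34 and 41 reads in control and 40, 37 and 20 reads in CD. The groups overlapped, and the mean was 2.58 ± 0.389 CPM in control and 2.06 ± 0.541 CPM in CD (log2 change -0.31, CI -0.89 to 0.28, edgeR FDR 0.360, exact permutation p = 0.5). No alternative setting called it, the log2 change without CD replicate 3 was -0.15, and with so few reads a change within that interval was not detectable.

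The ratio of GLI2 to GLI3 reads separated the groups without overlap. It was 0.500, 0.575 and 0.634 in the control libraries and 0.167, 0.246 and 0.151 in the CD libraries. CD replicate 3 lay beside CD replicate 1 in this ratio, although it had the fewest reads of both genes. The log2 ratio was lower in CD by a difference of -1.62, and of -1.48 without CD replicate 3 (exact permutation p = 0.1, the smallest possible, adjusted p = 0.15).

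The transcripts most like those of PTCH1 and SMO over the 6 libraries were looked up among 10088 other tested genes with a symbol, by the root mean square (RMS) difference of log2 CPM after centring each gene. The nearest to PTCH1 were HEG1 (RMS difference 0.0874), MCC (0.111) and SOGA1 (0.132), which have log2 changes of -1.12, -1.17 and -0.95, or of -0.80, -0.90 and -0.66 without CD replicate 3. Those nearest to SMO were closer, PIGQ (0.0210), COLGALT1 (0.0256) and MEN1 (0.0328), with log2 changes of -0.81, -0.79 and -0.74. The immediate neighbours on the ASM_NN_V1 assembly were given for 8 of the 9 genes, HHIP not being matched. Of 16 neighbours, 8 were tested and 4 of these were called, 50% against 47.7% of all genes. FANCC, a DNA repair gene beside PTCH1, was lower (log2 change -2.15, SE 0.23), and so was TSPAN33 beside SMO (-0.91, SE 0.12). TRIM8, beside SUFU, and INHBA, beside GLI3, rose by 0.98 and 2.15 on the log2 scale, while SUFU fell and GLI3 was not called.

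**Figure D3:**
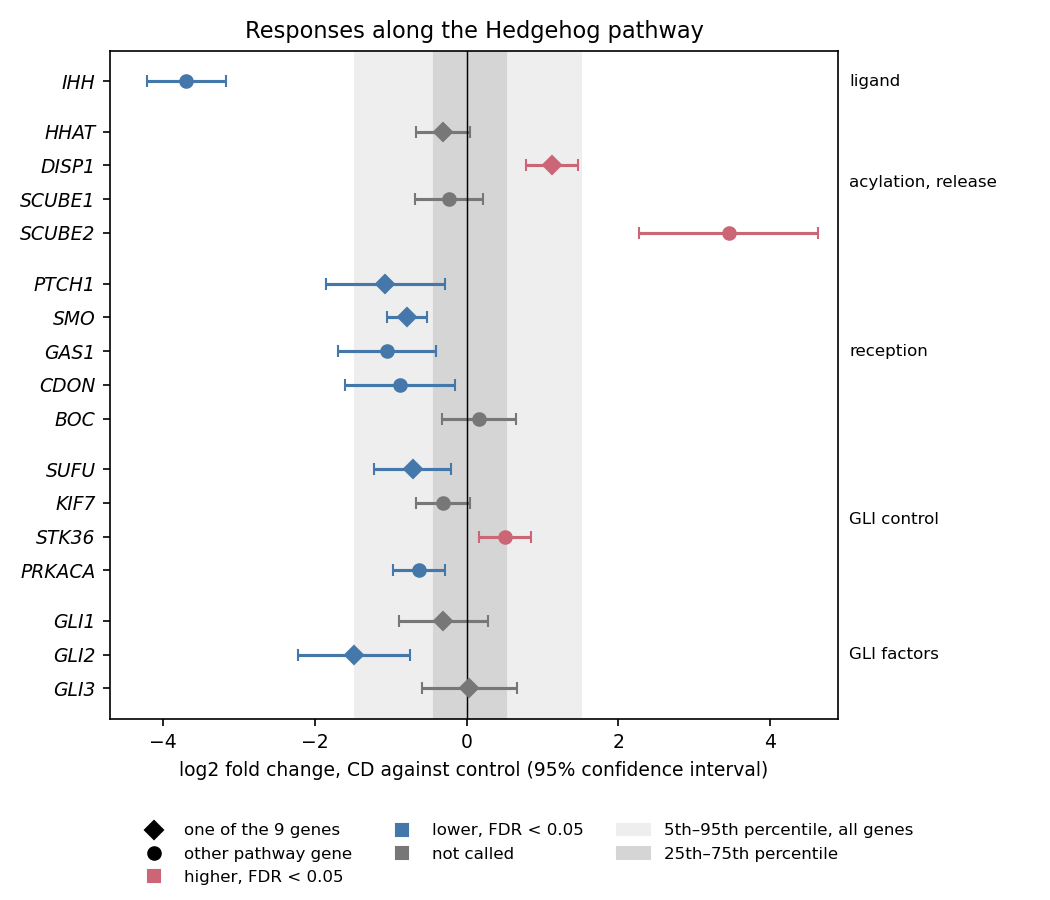
Log2 fold changes of CD against control with 95% confidence intervals for genes at each step of the Hedgehog pathway, with the 8 tested Hedgehog genes as diamonds and other pathway genes as circles. Grey bands show the middle 50% and 90% of all tested genes. IHH lies lowest at -3.70 and SCUBE2, which passed the filter only through the CD libraries, highest at 3.46, the called genes of the reception step are all lower, and GLI2, at -1.49, lies apart from GLI1 and GLI3.

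Of the 17 genes listed as acting on SMO and on cAMP at the cilium, 12 were tested, with 2 higher and 4 lower and a median log2 change of -0.18. The share called, 50%, was near the 47.7% of all genes. IQCE, which tethers the EVC-EVC2 complex next to SMO at the base of the cilium, fell by 0.78 on the log2 scale (edgeR FDR 0.00739), and ADCY6, an adenylyl cyclase that supplies cAMP, fell by 0.71 (FDR 0.00280). GPR161, a ciliary receptor that raises cAMP and so holds the pathway in check, rose by 0.69 (edgeR FDR 0.00648). EFCAB7, the partner of IQCE, was called higher by 0.71 (FDR 0.0452) but kept that call in only 5 of 13 alternative settings, and leaving out control replicate 1, 2 or 3 or CD replicate 1 or 3 ended it (FDR from 0.0838 to 0.133). EVC and ARRB2 were the other genes called lower, calls that were lost without control replicate 3 (edgeR FDR 0.0753 and 0.0638) and, for ARRB2, without control replicate 1 (FDR 0.0554). In the list of GLI regulators, 19 genes besides SUFU were tested, of which 5 rose and 1 fell, 26.3% and 5.26% beside 24.8% and 22.9% of all genes, with a median of 0.33. The share that rose was thus near that of all genes. Without CD replicate 3, 9 rose and 2 fell, in a fit that called 29.3% of all genes higher and 29.2% lower. CSNK1A1, a casein kinase that phosphorylates GLI proteins (0.93, edgeR FDR 0.00119), the ubiquitin ligase ITCH (0.79, FDR 0.00467) and the GLI-degrading F-box protein FBXW11 (0.67, FDR 0.00216) rose. PRKACA, the catalytic subunit of protein kinase A, fell from 102 ± 7.41 to 66.2 ± 12.8 CPM (-0.63, edgeR FDR 0.00723). KIF7, the ciliary kinesin that acts with SUFU, was at -0.31 (edgeR FDR 0.130) and was not called except without CD replicate 3 (-0.40, FDR 0.0313). STK36 (Fused), a kinase of the pathway, was called higher by 0.51 (edgeR FDR 0.0197), which was lost without control replicate 1 or 2 or CD replicate 2 (FDR 0.0576, 0.0893 and 0.0915).

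Genes commonly listed as GLI targets were mostly lower in CD, and none of them was called higher. With PTCH1, GLI1 and HHIP left out, 14 were listed, 12 were found and 7 had enough reads to be tested, of which 6 fell, against 22.9% of all genes, with a median log2 change of -1.11. Without CD replicate 3 all 7 were called lower, in a fit that called 29.2% of all genes lower. BMP4, a growth factor, fell from 21.3 ± 0.837 to 3.62 ± 0.541 CPM (log2 change -2.56, edgeR FDR 3.64e-06), and BCL2, an inhibitor of apoptosis, from 7.98 ± 0.464 to 1.71 ± 0.175 CPM (-2.21, FDR 1.80e-05). FOXM1, a transcription factor of the cell cycle, fell from 131 ± 12.5 to 29.7 ± 0.744 CPM (-2.14, edgeR FDR 9.02e-07), and HES1, also a target of Notch, from 25.1 ± 1.03 to 11.6 ± 3.53 CPM (-1.11, FDR 0.00180). SNAI1 also fell, by 0.79 on the log2 scale, and JAG2 was at -0.28 (edgeR FDR 0.0735). JAG2 was called lower only without CD replicate 3 (-0.33, edgeR FDR 0.01055) and with scaling by total counts only (FDR 0.0457). The call of SNAI1 was lost without control replicate 2 or 3 or CD replicate 2 (edgeR FDR 0.106, 0.105 and 0.112) and with DESeq2. The remaining called gene, FOXF1, had 21, 23 and 28 reads in control and 13, 10 and 12 reads in CD. FOXF1 also lost its call with DESeq2 (log2 change -1.08, DESeq2 FDR 0.0655). It passed the filter on low counts through the control libraries only, so that its test was conditioned on that direction and its place among the 6 is a description. Each of these genes is known to have other regulators as well. HHIP, FOXF2, FOXL1, MYCN and SFRP1 had no reads. The remaining listed targets, CCND1 and CCND2, were not found by symbol, and GREM1 had 1 read in all.

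Genes of the primary cilium, where SMO acts, had more calls higher than lower in CD. Of 39 listed, 33 were tested, and 11 of them rose and 1 fell, 33.3% and 3.03% beside 24.8% and 22.9% of all genes, with a median log2 change of 0.40. Without CD replicate 3, 13 rose and 2 fell, in a fit that called 29.3% of all genes higher and 29.2% lower. The subunits of the kinesin-II motor, which carries cargo towards the ciliary tip, rose together: KIFAP3 by 1.26 (edgeR FDR 0.000174), KIF3B by 1.09 (FDR 0.000152) and KIF3A by 1.09 (FDR 0.0123, and 0.0609 without control replicate 3). DYNC2LI1, of the dynein motor of the return journey, rose from 5.35 ± 0.565 to 12.6 ± 1.51 CPM (log2 change 1.24, edgeR FDR 0.000399). The gene called lower, named after its value was seen, was IFT140 (-0.40, edgeR FDR 0.0265, and 0.0627 and 0.127 without control replicates 1 and 3), of the intraflagellar transport complex that works with this dynein. Kinesin-II also moves cargo in the cytoplasm, and no measurement here bears on the number or length of cilia.

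**Figure D4:**
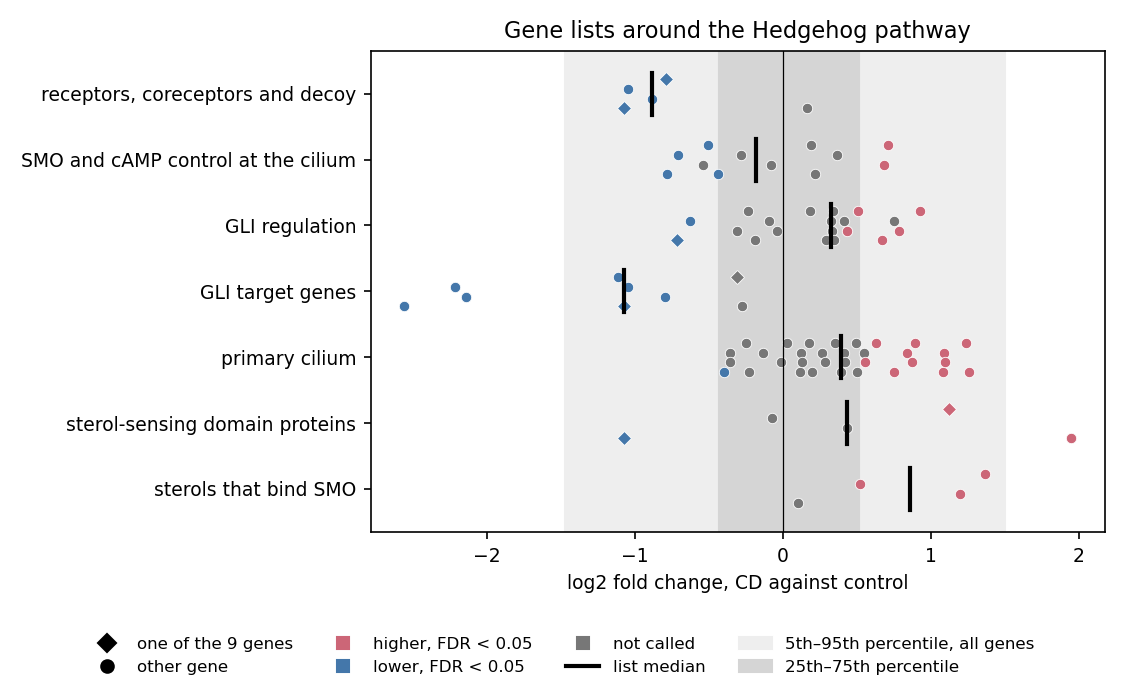
Log2 fold changes of CD against control for the tested genes of 7 lists around the Hedgehog pathway, with 1 point per gene, diamonds for the Hedgehog genes, black lines for list medians and grey bands for the middle 50% and 90% of all tested genes. The GLI targets lie to the left (median -1.07 with PTCH1 and GLI1) and the cilium genes mostly to the right (median 0.40).

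The sterol-sensing domain is shared by proteins of cholesterol homeostasis and by PTCH1 and DISP1. Of 10 listed genes, 5 were tested, with 2 higher and 1 lower (40% and 20%, beside 24.8% and 22.9% of all genes) and a median log2 change of 0.43. The called genes were DISP1 and PTCHD1 on the higher side and PTCH1 on the lower. PTCHD1, a relative of PTCH1, had 7, 11 and 15 reads in control and 61, 36 and 33 reads in CD. It also passed the filter on low counts through the CD libraries only. Its values, its place among the 2 called higher and the share of 40% are therefore likewise a description. SCAP, the sterol sensor that escorts SREBP, was at -0.074 (edgeR FDR 0.640), and the cholesterol transporter NPC1 at 0.43 (FDR 0.0683), neither of them called, although NPC1 was called higher without CD replicate 3 (0.59, FDR 5.11e-06).

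A further list held enzymes that make or remove the sterols and oxysterols to which SMO responds. Of 7 listed, 4 were tested and 3 rose (75%, beside 24.8% of all genes), with a median log2 change of 0.86. HSD3B7, an enzyme of oxysterol and bile acid metabolism, rose from 20.9 ± 3.05 to 53.9 ± 5.21 CPM (1.36, edgeR FDR 6.11e-05), and SC5D, which makes 7-dehydrocholesterol, rose by 1.197 (FDR 9.31e-05). DHCR7, which turns that sterol into cholesterol, was called higher (0.52, edgeR FDR 0.0120), but the call was lost without control replicate 1, control replicate 2 or CD replicate 2 (FDR 0.0648, 0.0631 and 0.0604). CYP27A1, which makes oxysterols, was at 0.11 and was not called (edgeR FDR 0.500), and the hydroxylase genes CYP7B1, CYP46A1 and CH25H had at most 2 reads over all libraries.

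Over all pathway and cilium genes outside the 9, 102 were listed, 85 were found and 77 were tested. CD raised 19 of them (24.7%) and lowered 15 (19.5%), beside 24.8% and 22.9% of all tested genes, and without CD replicate 3 the numbers were 26 and 17, when 29.3% and 29.2% of all genes were called. SCUBE2 among the 19 and FOXF1 among the 15 passed the filter on low counts through 1 group only, and their places in these numbers are a description. In the fit with all 6 libraries the shares of the wider set thus stood near those of all genes.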

How the data were processed

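RNA of untreated (control) and cholesterol-depleted (CD) Mv1Lu cells was sequenced by the authors, with 3 libraries per group. Per the methods and the submitters' processing notes, poly(A) mRNA was made into Nextera XT libraries, and reads were trimmed with fastp 0.20.1, aligned to the mink genome with STAR 2.7.2a and compared with DESeq2 1.30.1 in R 4.0.3. The counting program was not given in the sources used here. The kit does not mark the strand, so that overlapping and antisense genes cannot be told apart. The authors deposited raw counts of reads per gene, which were used here. The deposited normalized values were not used, since the identifiers in their files do not follow the order of the raw counts. Read totals that name no gene (29.3–47.2% of a library) were left out of library sizes and tests.

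The 9 genes and the lists were chosen with earlier results of these data known, and the lists were written from general knowledge. Genes were matched by symbol. Some genes of the lists are not reported here and were left out of the lists' counts and medians. All 9 genes are described. Of each list, up to 4 called genes with the largest log2 changes are named, with all ligands and receptors, and others were named after their values were seen.

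Counts were filtered by filterByExpr (minimum count 10, minimum total 15), scaled by TMM and tested with glmQLFit (robust) and glmQLFTest of edgeR 4.0.16 in R 4.3.3, with the condition as the only term. P-values were adjusted over 12148 genes. Scripts were tested on simulated data. No 2 libraries agreed within sampling noise (lowest chi-square per degree of freedom 9.28, controls 1 and 2). Alternatives were DESeq2 1.42.0, limma-voom (limma 3.58.1), scaling by total counts, upper quartiles or the size factors of DESeq2, counts left unfiltered or filtered at 50 in 3 libraries, a replicate block, each library left out, and an FDR of 0.01 for numbers of genes only. The names of neighbouring genes came from the RefSeq annotation of ASM_NN_V1, which is not the assembly used by the authors, and no coordinates or sequences are given.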

Additional observations from a re-analysis of the deposited data

How the results depend on the processing

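The number of Hedgehog genes called higher (1, DISP1) was the same in every alternative. The number called lower, 4, became 2 with scaling by total counts only and 2 at an FDR of 0.01, and ranged from 2 to 4 when 1 library was left out, with 2 without control replicate 1 or 3. SMO and GLI2 were the ones called in all of them, and PTCH1 and SUFU were those lost. With no filter on low counts it was 3, without PTCH1. At an FDR of 0.01, 2006 of all genes were called higher instead of 3016, and 9 of the wider pathway genes lower instead of 15.

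GLI3, not called in any setting, changed sign with limma-voom (-0.0069) and with the replicate block (-0.015), and its log2 change ranged from -0.18 to 0.27 when 1 library was left out. Whether equal replicate numbers pair the samples was not settled. The correlations of their deviations from the group means were -0.024, -0.329 and -0.185. Deviations from a mean of 3 libraries depend on each other, so that these values cannot decide it. With the replicate block, 1 Hedgehog gene was called higher and 4 lower as before, and of all genes 2772 were called higher and 2636 lower. GAS1 lost its call under the block (log2 change -0.99, edgeR FDR 0.219), as did EFCAB7 (0.69, FDR 0.05002) and ARRB2 (-0.51, FDR 0.0529). The cause of these changes was not tested. Alternatives were run for 58 single genes, of which between 45 and 58 kept their direction and their side of the threshold in each setting, and 52 of 52 with the minimum of 50 counts. The median log2 change of all tested genes stayed between 0.016 and 0.091 in all settings. Genes with few reads, such as HHIP and DHH, could not be tested at this depth.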
